A study of Mus musculus with 6 samples.

Results

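Matrix metalloproteinases and their inhibitors were followed in purified hematopoietic stem cells (HSCs) of the mouse fetal liver after loss of Dpy30, a core subunit of the SET1/MLL histone H3 lysine 4 methyltransferases. The set has 10 genes of the 38926 gene symbols counted: the metalloproteinases Mmp2, Mmp8, Mmp9, Mmp12, Mmp13, Mmp14 and Mmp19, and the tissue inhibitors Timp1, Timp2 and Timp3. They were taken by symbol, around the observation that Mmp13 had no counts in controls and many in knockouts, and the question is whether its relatives shared that pattern. The knockout-against-control contrast thus chose the set, so the members' values in it are a description and no test of them is given as support.

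RNA was sequenced from 6 libraries of E14.5 embryos, and each of 3 litters gave 1 control and 1 knockout. Controls carried Vav-Cre, a Cre recombinase driven in blood-forming cells, with 1 floxed and 1 intact Dpy30 allele. Knockouts carried Vav-Cre with 1 floxed and 1 deleted allele, so both groups carried the Cre and a floxed allele, and the comparison is with heterozygous cells. Libraries are called control 1 to 3 and knockout 1 to 3, the number being the litter. Whether a library came from 1 embryo or from several pooled embryos is not stated in the labels.

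Metalloproteinases are zinc-dependent proteases that cut the extracellular matrix and many cell-surface and secreted proteins. Most are made as inactive precursors, are opened by other proteases, and are held in check by TIMPs, which block the active site. Mmp13 (collagenase-3) and Mmp8 (collagenase-2) cut fibrillar collagens, and Mmp13 is best known from developing bone and cartilage while Mmp8 is stored in neutrophil granules. Mmp13, Mmp8 and Mmp12 lie in 1 cluster of metalloproteinase genes on chromosome 9.

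The proximal promoters of 3 members are shown because Mmp13 was counted in knockouts alone, Mmp8 is a cluster relative with another pattern, and Mmp14 had the highest mean level per length in controls. Each is the stretch of 250 bases before the RefSeq start (GRCm38.p6, plus strand): chr9:7272264-7272513 for Mmp13, chr9:7558179-7558428 for Mmp8 and chr14:54431348-54431597 for Mmp14. Capitals mark the letters of 4 motifs searched on both strands, AP-1 (TGANTCA), RUNX (ACCACA), ETS (AGGAAG) and the TATA box (TATAAA).
Mmp13: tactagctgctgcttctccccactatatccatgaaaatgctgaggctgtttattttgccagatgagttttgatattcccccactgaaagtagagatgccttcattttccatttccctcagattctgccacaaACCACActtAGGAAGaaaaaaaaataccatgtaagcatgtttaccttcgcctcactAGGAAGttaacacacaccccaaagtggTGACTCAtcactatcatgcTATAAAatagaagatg
Mmp8: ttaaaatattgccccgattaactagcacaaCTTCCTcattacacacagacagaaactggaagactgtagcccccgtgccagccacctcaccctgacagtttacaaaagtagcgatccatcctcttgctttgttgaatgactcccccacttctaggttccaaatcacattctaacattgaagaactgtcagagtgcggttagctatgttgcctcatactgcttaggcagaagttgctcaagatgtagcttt
Mmp14: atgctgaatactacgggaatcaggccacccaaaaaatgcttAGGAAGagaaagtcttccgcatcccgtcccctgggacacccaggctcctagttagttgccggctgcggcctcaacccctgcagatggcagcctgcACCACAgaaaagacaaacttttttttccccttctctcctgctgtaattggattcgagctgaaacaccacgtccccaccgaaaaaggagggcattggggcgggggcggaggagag
In this window Mmp13 held 1 AP-1 match at bases 35 to 29 before the start, 1 RUNX match at 118 to 113, 2 ETS matches at 109 to 104 and 62 to 57, and 1 TATA match at 16 to 11. Mmp8 held 1 ETS match, and Mmp14 held 1 RUNX and 1 ETS match. Of the 7 members with an entry in the RefSeq table, Mmp13 was the one with a TATA match. An AP-1 match was present also before the second listed start of Mmp12, and there it was TGAGTCA. Over all 32851 promoter windows of this length, 6.75% held the AP-1 letters, 14% the RUNX letters, 29.5% the ETS letters and 12.4% the TATA letters, and 21 windows (0.0639%) held all 4. The motifs were picked from general knowledge of metalloproteinase promoters, Mmp13 among them, and a match is a description of letters, not of a bound site.

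In units of 1000000, the libraries held 31.9 to 43.4 gene counts. The 10 genes with most counts took 57.9% to 70.2% of these in controls and 51.6%, 59.4% and 53.8% in knockouts 1 to 3. Genes with any count numbered 16149 to 17241 in controls and 16857, 14674 and 13972 in knockouts 1 to 3. Whether the lower numbers in knockouts 2 and 3 bear on counts of 0 among the members there was not tested. Dpy30 itself had 712, 904 and 1395 counts over controls 1 to 3 against 315, 216 and 478 over knockouts 1 to 3. Knockouts 2 and 3 stood apart in the cell markers. The summed level of 9 HSC genes, with Kit, Slamf1, Procr and Mecom among them, was 563 to 602 counts per 1000000 (CPM) in controls and 636, 741 and 217 CPM in knockouts 1 to 3. Cd48, a gene of progenitors that HSCs lack, stood in the same list and was left out of this sum after the data were seen; it was at 0 to 4.33 CPM. Slamf1 had 18 counts in knockout 3 against 239 to 622 in the other libraries. The sum of 7 endothelial markers, several of which fetal HSCs also express, was 1157 to 1809 CPM in controls and 1642, 180 and 1665 CPM in knockouts 1 to 3. It exceeded the HSC sum in 5 of 6 libraries. Stab2 and Lyve1, known from liver sinusoids, were among these markers. In bulk RNA, fewer cells of a type and less RNA per cell cannot be told apart.

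The Mmp13 pattern was not repeated in any of the other 9 members. Of the 7 members that passed the filter on low counts, 2 (Mmp13 and Timp2) had every knockout above every control, and 0 had every knockout below. Over all 13646 genes tested the shares were 6.39% and 7.74%. The same 2 were higher in the knockout of all 3 litters (12.3% of all genes), and 0 members were lower in all 3 (15.9%). In 3 of the 7, Mmp2, Mmp8 and Timp1, a single knockout held over 90% of the summed CPM of the knockouts, as in 7.86% of all genes. With any 1 library left out, Mmp13 and Timp2 kept every remaining knockout above every remaining control, as did 8.93% to 13.3% of all genes. Without control 2 Timp3 joined them. Without control 1 Timp1 had all remaining knockouts below all remaining controls (12.1% of all genes), and without knockout 3 so did Mmp2 (12.9%). edgeR's quasi-likelihood test called 0 of the 7 members at an adjusted p under 0.05 (0% of all genes), and 2 had an unadjusted p under 0.05 (6.51% of all genes). DESeq2 called 1, Mmp13 (1.08% of the 12862 genes to which it gave an adjusted p), and limma-voom called 0 (0%). Mmp2 and Timp1 were given no adjusted p by DESeq2. Since the contrast chose the set, nothing is read from these counts.

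**Figure D1:**
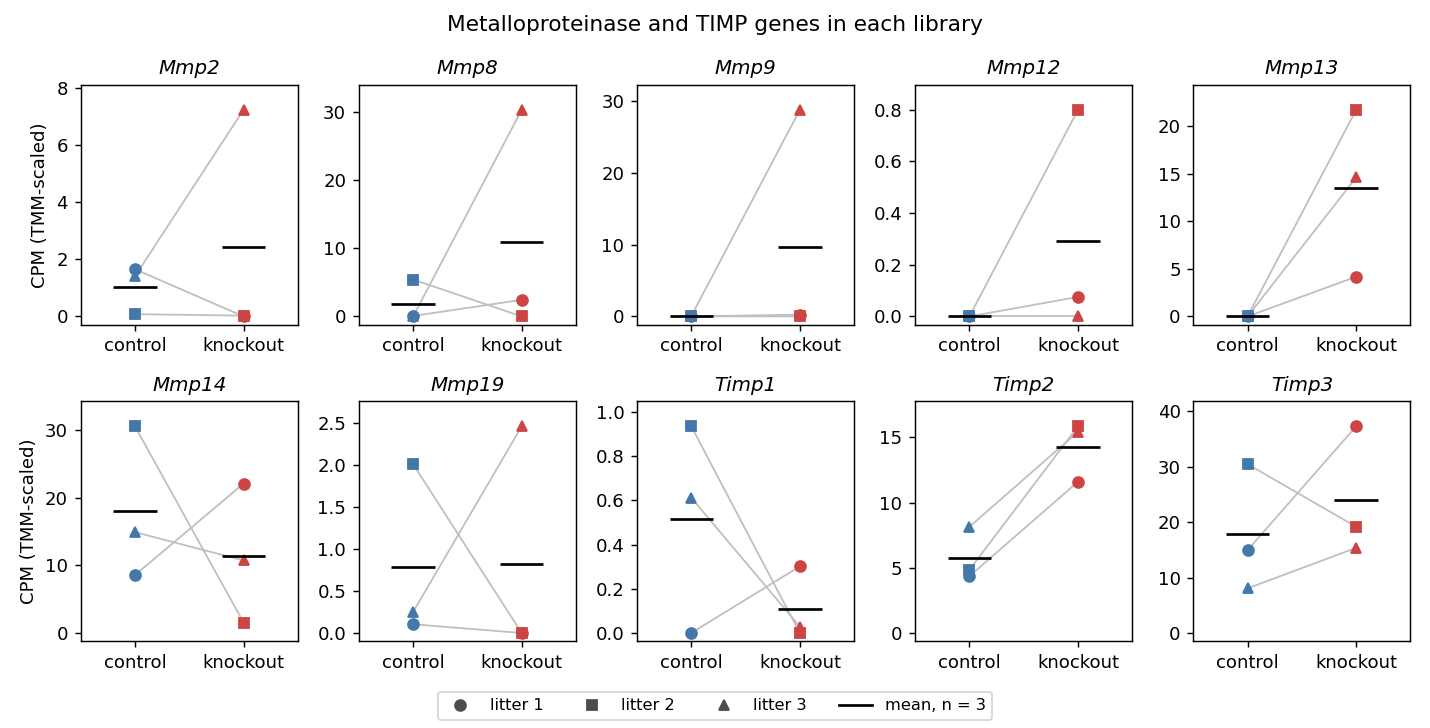
Level of each member in CPM on a linear axis, with control and knockout libraries side by side, grey lines joining the libraries of a litter and black bars marking the mean of 3. Mmp13 and Timp2 separate the groups, while Mmp2, Mmp8, Mmp9 and Mmp19 are highest in knockout 3 alone.

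Among the collagenases, Mmp13 (ENSMUSG00000050578.10; chromosome 9, 7272514 to 7283331, plus strand, GRCm38) had no counts in any control but 166, 789 and 512 counts over knockouts 1 to 3. In CPM the knockouts were at 4.18, 21.7 and 14.6, a mean of 13.5 ± 8.84 (SD, n = 3). All 3 knockouts lay far above the controls, and knockout 1 was the lowest of them. A count of 0 allows a level of up to 3 counts, which is 0.0680 to 0.104 CPM in the controls. Against the mean of those floors, taken per library, the knockout mean was at least 161-fold higher. No other gene of GENCODE M21 shares exon bases with Mmp13; the gene models behind the deposited counts are not given in the sources used here.

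Mmp8 (ENSMUSG00000005800.3; chromosome 9, 7558456 to 7568485), the neutrophil collagenase, had 2, 203 and 0 counts over controls 1 to 3 against 97, 0 and 1064 over knockouts 1 to 3. The groups overlapped, since knockout 2 had no count while control 2 had 203. Means were 1.83 ± 3.11 CPM among controls and 10.9 ± 16.9 CPM among knockouts (SD, n = 3 each), and in both groups the SD exceeded the mean. The log2 fold change was 2.57 (SE 2.45), without knockout 3 it turned to -0.57, and it was 8.29 without control 2 and 4.86 with litter as a block. Within litters the log2 CPM of the knockout minus that of the control was 4.34, -6.66 and 9.13 in litters 1 to 3.

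The gelatinases Mmp2 and Mmp9 cut denatured collagen and the type IV collagen of basement membranes. Mmp9 (ENSMUSG00000017737.2; chromosome 2, 164940780 to 164955850) had 0, 1 and 2 counts over controls 1 to 3 against 10, 0 and 1008 over knockouts 1 to 3. Knockout 3 thus held 99.1% of the summed CPM of the knockouts, and Mmp9 did not pass the filter. Mmp2 (ENSMUSG00000031740.8; chromosome 8, 92827291 to 92853420) had 48, 3 and 62 counts over controls 1 to 3 against 0, 1 and 254 over knockouts 1 to 3. Its groups overlapped, with the lowest and the highest library both among the knockouts. The log2 fold change was 1.21 (SE 2.21). It was -1.64 with litter as a block, the pairing that the labels give, and -5.95 without knockout 3.

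Mmp12 (ENSMUSG00000049723.14; chromosome 9, 7344381 to 7369499), the elastase of macrophages, had no counts in any control but 3, 29 and 0 counts over knockouts 1 to 3. Like Mmp13 it was without a count in controls and highest in knockout 2, but knockouts 1 and 3 did not exceed the floor of 3 counts. It shares 157 exon bases with Mmp1b on the other strand, and it did not pass the filter.

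Mmp14 (ENSMUSG00000000957.11; chromosome 14, 54431612 to 54445364) encodes the membrane-type protease MT1-MMP, which activates the Mmp2 precursor with the help of Timp2. It had 248, 1144 and 658 counts over controls 1 to 3 against 879, 56 and 376 over knockouts 1 to 3. Its groups overlapped, with knockout 2 below all other libraries. Means were 18.03 ± 11.3 CPM among controls and 11.5 ± 10.3 CPM among knockouts (SD, n = 3 each; log2 fold change -0.65, SE 0.89). That fold change was -1.56 without knockout 1, -0.99 without control 1, -0.13 without knockout 2 and -0.027 without control 2. Mmp19 (ENSMUSG00000025355.7; chromosome 10, 128790910 to 128800824), a widely expressed metalloproteinase, had 3, 75 and 11 counts over controls 1 to 3 against 0, 0 and 86 over knockouts 1 to 3. It did not pass the filter, and 789 of its exon bases overlap Tmem198b on the other strand.

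**Figure D2:**
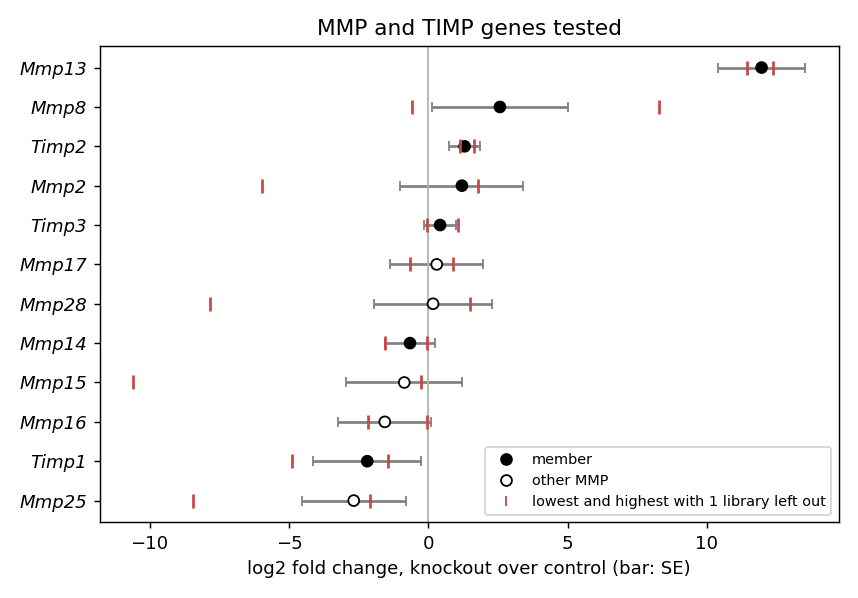
Fitted log2 fold change (knockout over control) of the 12 metalloproteinase and TIMP genes tested, with the SE as a bar; filled points are members, open points other metalloproteinases, and red ticks the lowest and highest value with 1 library left out. Mmp13 sits at 11.96, and the other 11 genes lie between -2.67 and 2.57. Because its controls are at 0, the Mmp13 value depends on the prior count within edgeR's fit. That is not the prior count of 2 used for log2 CPM.

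Among the inhibitors, Timp2 (ENSMUSG00000017466.9; chromosome 11, 118301069 to 118355740, minus strand) was at 4.35, 4.84 and 8.14 CPM over controls 1 to 3 and at 11.6, 15.8 and 15.4 CPM in knockouts 1 to 3. The lowest knockout was above the highest control, and each litter showed the same direction. Means were 5.78 ± 2.06 and 14.3 ± 2.34 CPM (SD, n = 3 each), a ratio of 2.47. The fitted log2 fold change of Timp2 stayed between 1.14 and 1.64 over the alternatives tried. Unlike Mmp13, Timp2 was counted in every control, with 126 to 359 counts.

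Timp3 (ENSMUSG00000020044.13; chromosome 10, 86300372 to 86349506), an inhibitor held in the matrix that also blocks ADAM proteases, was at 14.95, 30.5 and 8.05 CPM over controls 1 to 3 and at 37.3, 19.2 and 15.4 CPM in knockouts 1 to 3. The groups overlapped widely (log2 fold change 0.43, SE 0.59; -0.045 without knockout 1 and 1.07 without control 2). Timp3 lies inside Syn3 and shares 1733 exon bases with it on the other strand. Timp1 (ENSMUSG00000001131.11; chromosome X, 20870166 to 20874735), a secreted inhibitor that acts poorly on Mmp14, had 0, 35 and 27 counts over controls 1 to 3 against 12, 0 and 1 over knockouts 1 to 3. Control 1 and knockout 2 both had no count, so the groups overlapped (log2 fold change -2.19, SE 1.94). It was -4.89 without knockout 1, -1.43 without control 2 and -3.34 with litter as a block. The median log2 fold change of the 7 members tested was 1.21, also with Mmp13 at its lower bound, against 0.02 over all genes tested. It was 0.54 with litter as a block and 0.59 in limma-voom, with 4 of 7 positive in place of 5, and -0.57 without knockout 3, with 3 of 7 positive. Mmp13 passed the filter through the knockouts alone, so that median supports nothing.

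Levels of different genes were compared as CPM per kilobase of exon. In controls the order ran from Mmp14 (3.02 ± 1.90), Timp3 (2.19 ± 1.41) and Timp2 (1.48 ± 0.529) to Mmp8, Timp1, Mmp2 and Mmp19 (0.756 to 0.223), then Mmp9 (0.00679), with Mmp13 and Mmp12 at 0 (CPM per kilobase, SD, n = 3). Each gene's range over the controls overlapped that of its neighbour in this order, apart from Mmp19 and Mmp9. In knockouts Mmp13 came first by its mean (5.06 ± 3.31), ahead of Mmp8 (4.51 ± 6.96), Timp2 (3.67 ± 0.601) and Timp3 (2.94 ± 1.44), and every range overlapped that of its neighbour. Timp2 had the smallest SD relative to its mean among these 4.

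**Figure D3:**
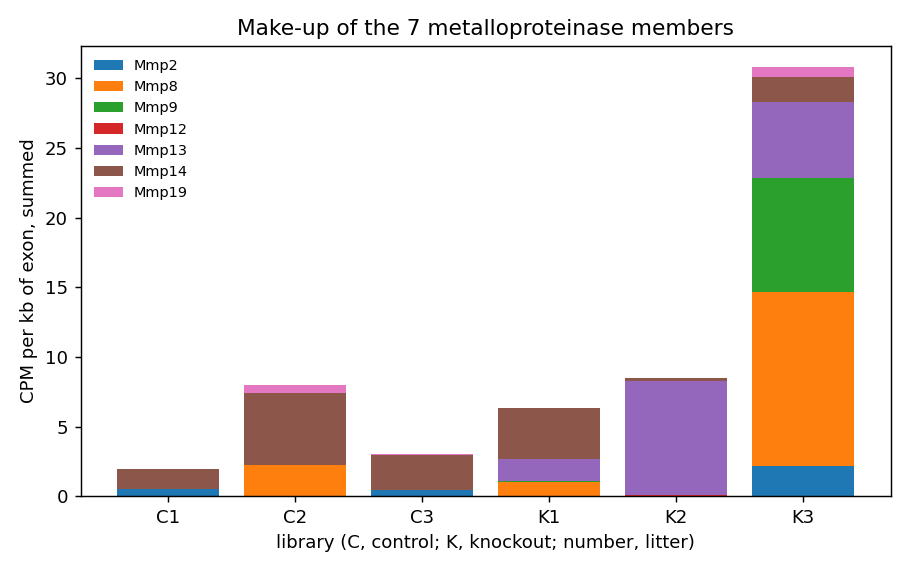
Stacked level of the 7 metalloproteinase members in each library, in CPM per kilobase of exon, with C for control, K for knockout and the litter number. Mmp14 is the largest block in each control, Mmp13 makes up 24.6%, 95.6% and 17.8% of the stack in knockouts 1 to 3, and knockout 3 reaches 30.8 through Mmp8 and Mmp9.

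The make-up of the metalloproteinase transcripts differed from library to library. Their sum was 1.99, 7.97 and 3.00 CPM per kilobase over controls 1 to 3 against 6.36, 8.51 and 30.8 over knockouts 1 to 3. Without Mmp13 the knockout sums were 4.80, 0.378 and 25.3, the lowest and the highest of all libraries included. The 3 TIMPs together came to 2.95, 6.04 and 3.77 CPM per kilobase over controls 1 to 3 against 7.90, 6.42 and 5.88 over knockouts 1 to 3. The ratio of the metalloproteinase sum to the TIMP sum was 0.673, 1.32 and 0.797 over controls 1 to 3 against 0.806, 1.33 and 5.24 over knockouts 1 to 3, so knockout 3 alone left the range of the controls by a wide margin.

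The cluster on chromosome 9 was examined gene by gene, since Mmp13 lies at its outer end, with Mmp12 the nearest relative at a gap of 61.0 kilobases. Mmp1b, Mmp3, Mmp1a, Mmp10, Mmp20 and Mmp7 had 0 counts in all 6 libraries. Mmp27 had 4 counts in knockout 1 and 0 in the other 5 libraries. Mmp8, at a gap of 275.1 kilobases from Mmp13, had 0 counts in knockout 2, where Mmp13 was highest. On the other side Dcun1d5, a gene of the neddylation pathway at a gap of 64.3 kilobases, had 1042, 1076 and 1449 counts in controls and 654, 1079 and 1053 in knockouts. Dync2h1, a motor protein gene of cilia beyond it, had 808 to 849 counts in controls and 1107 to 1346 in knockouts. Every knockout was above every control in CPM, as in 6.39% of all genes (log2 fold change 0.52, SE 0.33, edgeR adjusted p = 0.844). On the far flank the groups overlapped in Tmem123, Birc2, Birc3 and Yap1. Their log2 fold changes were 0.127, 0.495, -0.395 and -1.19.

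**Figure D4:**
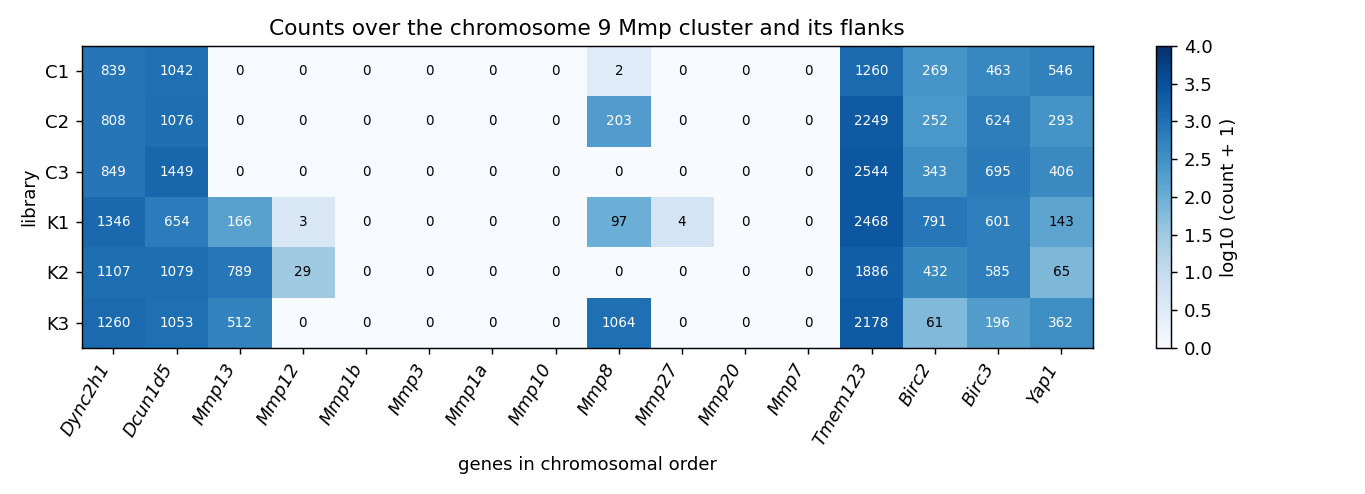
Counts in each library (rows; C, control; K, knockout; number, litter) of the genes of the chromosome 9 cluster and their flanks in chromosomal order (columns), shaded by log10 of the count plus 1. Mmp13 is filled in the 3 knockouts and in no control, 6 cluster genes are at 0 throughout, and Mmp8 is filled in a different set of libraries.

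The other 17 metalloproteinase and TIMP genes gave no second case. A total of 7 had 0 counts in every library, and 5 were tested. Of these 5, edgeR called 0 at an adjusted p under 0.05, with 0 at an unadjusted p under 0.05, and limma-voom called 0. DESeq2 called 0 too, but it gave no adjusted p to Mmp15, Mmp16 and Mmp28. Mmp25, which encodes the leukocyte protease MT6-MMP, was the 1 gene whose groups did not overlap. Over all genes 6.39% had every knockout above and 7.74% every knockout below. Mmp25 was lower in knockouts. It had 108, 237 and 311 counts over controls 1 to 3 against 1, 0 and 93 over knockouts 1 to 3, the opposite direction to Mmp13 (log2 fold change -2.67, SE 1.87; edgeR adjusted p = 0.863). It was -6.05 with litter as a block, -5.72 in limma-voom and -8.44 without knockout 3, which held 93 of the 94 knockout counts. Mmp15, a membrane-type relative of Mmp14 named after its values were seen, had 109, 328 and 142 counts over controls 1 to 3 against 345, 0 and 0 over knockouts 1 to 3. The median log2 fold change of the 5 genes was -0.86. It was -4.58 with litter as a block, -2.77 in limma-voom and -0.50 with library size only, and with 1 library left out it ranged from -2.11 (without knockout 1) to -0.085 (without control 2) and was -0.26 without knockout 3.

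Genes that act on metalloproteinases or carry them, such as plasminogen activators, convertases and docking proteins, were listed next. Of 23 listed, 15 were tested and edgeR called 0 (0% of all genes), while DESeq2 called 0 (1.08% of all genes). At an unadjusted p under 0.05 in edgeR there were 2, both higher in knockouts (6.51% of all genes in either direction). The log2 fold change of all genes tested was positive in 6927 of 13646, with a median of 0.02. In the list it was positive in 14 of the 15, all but Plau, with a median of 1.21. It was positive in 14 also under each other scaling and with litter as a block, in 13 without knockout 2 or knockout 3, and in 12 in limma-voom. The median of the 15 fell to 0.88 with litter as a block and to 0.976 in limma-voom. Leaving out knockout 3 lowered it to 0.818, and leaving out knockout 2 raised it to 1.645. In 4 of the 15 every knockout was above every control (6.39% of all genes), and 0 had every knockout below (7.74% of all genes). Earlier results of these data were known when this list was chosen, so nothing is read from its share of positive values. Ctsb, the lysosomal protease cathepsin B, was at 159 ± 54.6 CPM among controls and 368 ± 156 CPM among knockouts (SD, n = 3 each; log2 fold change 1.21, SE 0.37; edgeR adjusted p = 0.672). Thbs1, a matrix protein that binds metalloproteinases, was at 75.4 ± 18.6 and 127 ± 12.4 CPM (SD, n = 3 each; edgeR adjusted p = 0.709). Cd44, the hyaluronan receptor that docks Mmp9 and Mmp14 at the cell surface, was at 114 ± 5.76 and 154 ± 19.9 CPM (SD, n = 3 each; edgeR adjusted p = 0.775). Lcn2, the granule protein that binds Mmp9, had 146, 3 and 0 counts over controls 1 to 3 against 242, 308 and 3017 over knockouts 1 to 3 (edgeR adjusted p = 0.775).

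Among 25 matrix genes, 19 were tested, and edgeR called 0 (0% of all genes), with 1 at an unadjusted p under 0.05 (6.51% of all genes). DESeq2 called 1, Hapln1 (1.08% of all genes), and gave no adjusted p to Col1a2. The median log2 fold change of the 19 matrix genes was -0.26. It was -0.84 with litter as a block, -0.98 in limma-voom, -0.41 with upper-quartile scaling and -0.07 with library size only, and with 1 library left out it ranged from -0.44 (without control 1) to 0.06 (without knockout 2) and was -0.12 without control 2. Hapln1, which links hyaluronan to proteoglycans, had 1, 4 and 0 counts over controls 1 to 3 against 464, 828 and 214 over knockouts 1 to 3 (DESeq2 adjusted p = 3.34e-10; edgeR adjusted p = 0.539). Like Mmp13 it was highest in knockout 2. Vcan, the hyaluronan-binding proteoglycan versican, had 14, 691 and 414 counts over controls 1 to 3 against 1477, 708 and 1034 over knockouts 1 to 3 (log2 fold change 1.60, SE 0.99; edgeR adjusted p = 0.836), and its fold change was 1.04 without control 1 and 2.54 without control 2. Col5a2, a fibrillar collagen chain, was at 2.40 ± 1.134 and 0.409 ± 0.373 CPM (SD, n = 3 each; edgeR adjusted p = 0.844). Both had groups that did not overlap, Vcan higher and Col5a2 lower in knockouts. Of 30 ADAM and ADAMTS proteases, 17 were tested, and edgeR called 0 with 1 at an unadjusted p under 0.05 (6.51% of all genes). DESeq2 called 0 of these 17 (1.08% of all genes). Adamts6 (edgeR adjusted p = 0.759) had 188, 95 and 202 counts over controls 1 to 3 against 43, 16 and 2 over knockouts 1 to 3, while the sheddases Adam15 and Adam10 had groups that did not overlap in opposite directions, with log2 fold changes of 0.53 and -0.24 (edgeR adjusted p = 0.870 and 0.884).

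Transcription factors linked to Mmp13 were taken as a list of 19, of which 16 were tested. edgeR called 0 (0% of all genes) and DESeq2 called 0 (1.08% of all genes). At an unadjusted p under 0.05 in edgeR there were 3, all higher in knockouts (Nfkb1, Stat3 and Cebpb), against 6.51% of all genes in either direction. The median log2 fold change was 0.11, and it was 0.002 with upper-quartile scaling and 0.30 with library size only. Nfkb1, which encodes the p105 and p50 NF-kB subunits, had 562, 1077 and 1849 counts over controls 1 to 3 against 2122, 2308 and 3454 over knockouts 1 to 3, and its groups did not overlap (log2 fold change 1.26, SE 0.38; edgeR adjusted p = 0.672; DESeq2 adjusted p = 0.135). Stat3, Cebpb and the genes of the AP-1, RUNX and ETS families below were named after their values were seen. Of the 7 Fos and Jun genes, 6 were tested, and edgeR called 0 (0 at an unadjusted p under 0.05), as did DESeq2. By the mean CPM 3 were higher in knockouts and 4 lower. Fosl2 was at 23.3 CPM among controls and 48.2 CPM among knockouts (log2 fold change 1.05, and -0.93 without knockout 3), Junb at 1.69 and 1.86 CPM and Jund at 4.27 and 4.52 CPM. Fos had 82, 15 and 81 counts in controls and 21, 8 and 0 in knockouts, and Jun had 920, 443 and 1059 against 320, 829 and 268. Fosl1 was at 0.875 and 0.809 CPM, and Fosb, which was not tested, had 0 counts in the knockouts. For the RUNX genes the log2 fold change was 0.367 (Runx1), 0.584 (Runx2, and -0.666 without knockout 3) and -0.82 (Runx3). For the ETS genes tested it was 0.555 (Ets1) and -0.229 (Ets2, and 0.088 without control 2).

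Markers of other cell types were set beside the members. The sum of the 11 macrophage markers found, of 12 listed, was 312 to 497 CPM in controls and 631, 248 and 1027 CPM in knockouts 1 to 3. Of the 10 macrophage markers tested, 4 had every knockout above every control, namely Csf1r, C1qb, Cd68 and Timd4 (6.39% of all genes), and 6 were higher in the knockout of all 3 litters (12.3% of all genes). The groups overlapped in C1qa, C1qc, Marco, Mrc1, Vcam1 and Cd5l. The median log2 fold change of the 10 was 1.71 (1.14 without knockout 3), with 8 positive, all but Mrc1 and Vcam1. edgeR called 0 of the 10 (0% of all genes), with 4 at an unadjusted p under 0.05 (6.51% of all genes). DESeq2 called Csf1r (DESeq2 adjusted p = 0.00729) and C1qb (DESeq2 adjusted p = 0.00206), and it called 1.08% of all genes. In the monocyte list it called Lyz2 (DESeq2 adjusted p = 0.00742). Positive log2 fold changes were not particular to the macrophage list. Of the 6 neutrophil markers tested 6 were positive, with a median of 1.79 (0.70 without knockout 3, with 5 positive). Of the 7 monocyte markers tested 7 were positive, with a median of 0.39 (0.14 without control 1, with 4 positive). Mmp13 was highest in knockout 2, where the macrophage sum was the lowest of the 6 libraries and the HSC sum the highest, but the low macrophage sum rests on Mrc1. Mrc1, the mannose receptor that sinusoidal endothelium also makes, was at 180 to 359 CPM in controls and 26.4 CPM in knockout 2. Vcam1 was low there too, at 2.32 CPM against 22.4 to 50.1 CPM in controls. Without Mrc1, an alternative chosen after seeing the data, the macrophage sums were 129 to 138 CPM in controls. In knockouts 1 to 3 they were 322, 221 and 661 CPM. Every knockout was then above every control, while knockout 2, highest in Mmp13, was the lowest of the knockouts. Since the choice followed the values, nothing is read from this order. Csf1r, the receptor of macrophage growth factors, had 3352 counts in knockout 2 against 258 to 1463 in controls. The sum of 11 neutrophil markers was 60.3 to 120 CPM in controls and 70.4, 141 and 389 CPM in knockouts 1 to 3, with Retnlg and Ly6g at 0 in all libraries. Mmp8, Mmp9 and Lcn2 were all highest in knockout 3, the library with the highest macrophage and neutrophil sums and the lowest HSC sum. Elane and Prtn3 stand in both the neutrophil list and the list of genes that act on metalloproteinases. The part of these cells in the members' values was not tested.

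Of 8 osteoblast and chondrocyte markers, Ibsp, Bglap and Acan were at 0 in all libraries. Controls 1 to 3 had 2, 3 and 1 of the 8 detected, and knockouts 1 to 3 had 1, 3 and 0. The sum of that list was 1.95 to 5.42 CPM in controls and 0.629, 3.28 and 0 CPM in knockouts 1 to 3. Any part of such cells in the Mmp13 counts was not tested. Of 10 mesenchymal markers the sum was 12.8 to 29.2 CPM in controls and 3.60, 21.2 and 6.63 CPM in knockouts 1 to 3. Pdgfra had 108, 0 and 31 counts over controls 1 to 3, Pdgfrb had 92, 90 and 0, and both were at 0 in every knockout. Acta2 went the other way, with 1, 0 and 1 counts over controls 1 to 3 against 7, 5 and 25 over knockouts 1 to 3. These 3 genes did not pass the filter. Of the 6 mesenchymal markers tested, the log2 fold change was positive in 1 and negative in 5. The sum of 7 hepatocyte markers was 5.25 to 21.5 CPM in controls and 3.28 to 5.06 CPM in knockouts. Mmp14 was at its lowest in knockout 2, the library with the endothelial sum of 180 CPM, while Mmp15 was at 0 both there and in knockout 3, where that sum was 1665 CPM. The erythroid and monocyte lists, whose genes are not all specific to those cells, summed to 398 to 918 and 115 to 179 CPM in controls, and to 581 to 1853 and 217 to 805 CPM in knockouts.

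**Figure D5:**
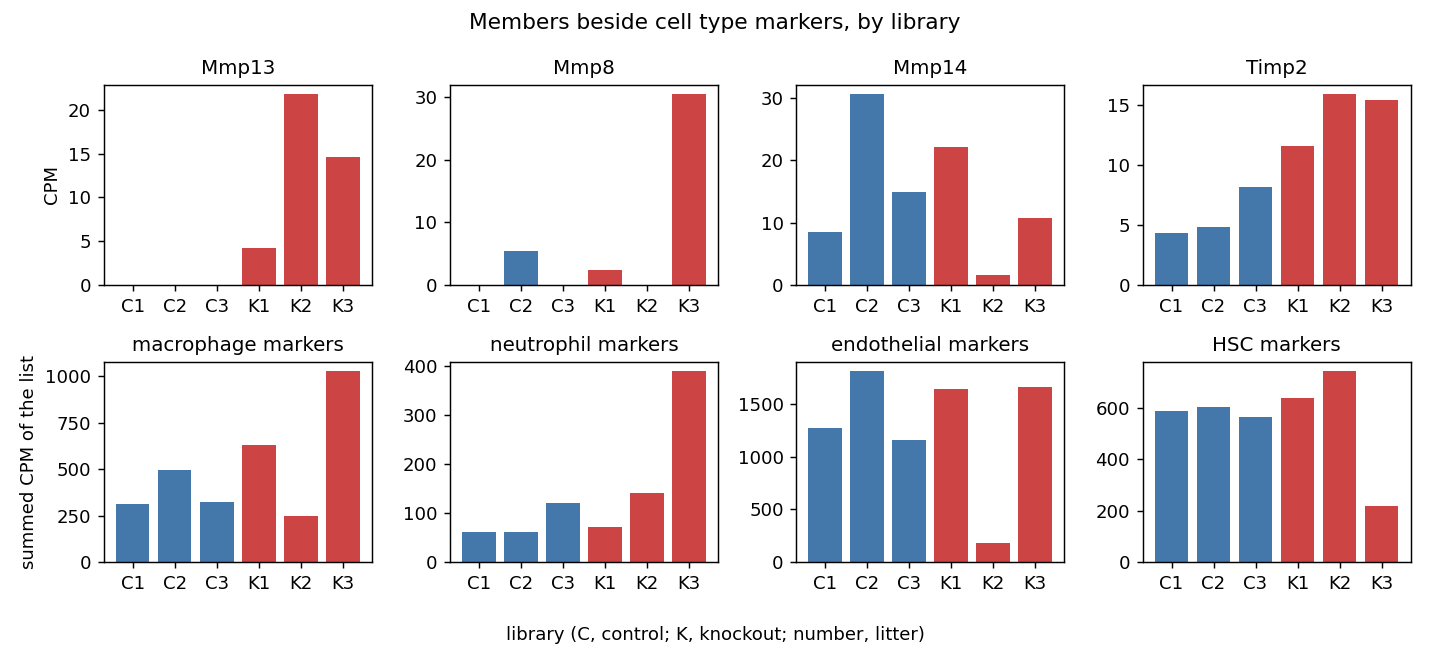
Level of 4 members (top, CPM) and summed level of 4 marker lists (bottom, CPM) in each library, with C for control, K for knockout and the litter number; bars start at 0. Mmp13 is highest in knockout 2, where the endothelial and macrophage sums are lowest. Without Mrc1, left out after the data were seen, the macrophage sum there is 221 CPM. That is above the 129 to 138 CPM of controls and below the 322 and 661 CPM of knockouts 1 and 3. Mmp8 is highest in knockout 3, where macrophage and neutrophil sums are highest.

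The genes most like Mmp13 were ranked by Pearson's r of log2 CPM over the 6 libraries, without predicted genes. The points fall into the 2 genotypes, with Mmp13 at 0 in all controls, so r mainly orders genes by how far the groups stand apart. The 6 highest were Cd80 (r = 0.998), a costimulatory ligand of T cells, Siglec5 (0.994), a sialic acid receptor, Ano3 (0.992), Rnpep (0.989), an aminopeptidase, Susd3 (0.989) and Ndufa2 (0.985), a complex I subunit. Cd80 had no counts in any control but 132, 398 and 485 counts over knockouts 1 to 3. It was with Mmp13 the only gene among those tested that had 0 counts in all controls and at least 100 in each knockout (2 genes, 0.0147%). The mirror pattern, no counts in any knockout and at least 100 in each control, was met by 1 gene (0.00733%), the heparan sulfate proteoglycan gene Gpc6, with 107, 160 and 142 counts over controls 1 to 3. Among the members, Timp2 came nearest to Mmp13 (r = 0.926, rank 102 of 11693), followed by Timp3 (0.271) and Mmp8 (0.268), while Mmp14 was at -0.532.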

How the data were processed

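Counts deposited by the authors are whole numbers per gene symbol, not normalized, in 1 list for each of 6 libraries. Per the submitters' processing notes, TopHat2, Picard 1.126, HTSeq 0.6.0, DESeq 3.0, bedtools 2.17.0, CASAVA 1.8.4 and the mm10 build were used. Strandedness and annotation are not given in the sources used here, so reads shared with genes on the other strand cannot be told apart. The 5 closing tallies of reads given to no gene (41.0% to 51.0% of all reads) were left out. Genes passing filterByExpr (13646) were scaled by TMM and tested with edgeR 4.0.16 (quasi-likelihood, no litter term, all 6 libraries, Benjamini-Hochberg threshold 0.05) in R 4.3.3. The SE was obtained by dividing the log2 fold change by the root of F. The common biological coefficient of variation, edgeR's measure of the spread between libraries of a group, was 0.817. DESeq2 1.42.0 and limma-voom (limma 3.58.1) were alternatives. Log2 CPM uses a prior count of 2. Floors (3 counts) cover counting error only. Exon lengths and coordinates are from GENCODE M21 (GRCm38), and promoters from RefSeq. Protein sequences were not used here.

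Members and lists were chosen with earlier results of these data known. All members are named. Of each other list, up to 4 genes are named that averaged at least 1 CPM in either genotype and whose groups did not overlap, in order of edgeR p. Litter numbers pair the libraries by the labels. Deviations from the genotype means correlated at -0.022, -0.075 and 0.0034 in litters 1 to 3. Separate embryos are not stated, so p-values measure only the spread between these libraries.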

Additional observations from a re-analysis of the deposited data

How the results depend on the processing

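Of all genes, the count past the threshold was 0 in edgeR, 1 without a filter on low counts, 1 with at least 10 counts in every sample and 139 in DESeq2. Of the members, the count was 0, and 1 (Mmp13, log2 fold change 11.40) in DESeq2. With 1 library left out in turn both counts ranged from 0 to 0, and the number of members with every knockout above every control, an alternative chosen after seeing the data, from 2 to 3. With litter as a replicate block, the pairing of the labels, both counts stayed at 0 (619 genes at an unadjusted p under 0.05, against 888), and no call changed. The sign of Mmp2 turned with the block (-1.64), in limma-voom (-2.01) and without knockout 3 (-5.95), that of Mmp8 without knockout 3 (-0.57) and that of Timp3 without knockout 1 (-0.045). With 1 library left out, the values ranged from -5.95 to 1.79 for Mmp2, from -0.57 to 8.29 for Mmp8, from -0.045 to 1.07 for Timp3, from -1.56 to -0.027 for Mmp14 and from -4.89 to -1.43 for Timp1. The cause was not tested. No member changed sign under the 3 other scalings, which moved the median over all genes from 0.02 to -0.10 (upper quartile), 0.23 (library size only) and 0.03 (DESeq2-style factors). Counts under 100 in several members limit their precision.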

Other observations

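Serpinb2 and Tfpi2 failed the filter and were, like Mmp12, without a count in controls and highest in knockout 2. They were picked after their values were seen. Serpinb2, an inhibitor of plasminogen activators, had no counts in any control but 1, 100 and 23 counts over knockouts 1 to 3. Tfpi2, a matrix-bound protease inhibitor, had no counts in any control but 11, 39 and 2 counts over knockouts 1 to 3.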
